A study of Homo sapiens with 6 samples.

Results

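Genes of fatty acid oxidation, ketogenesis and the PPAR targets around them were followed in Hep3B cells that carried either an empty vector or nuclear PD-L1 (nPD-L1). They were chosen by name, for their role in mitochondrial or peroxisomal β-oxidation, ketone bodies, lipid droplets or PPARα control. The rule used no expression value, but earlier results of these data were known when the genes were chosen. Of 37 listed genes, 36 were found among the 27009 genes of the table, and FABP1 was not analysed here. 30 of the 36 passed the filter on low values, which asked for 10 or more in 3 or more libraries and which 15076 genes passed in all.

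Hep3B is a human hepatocellular carcinoma line. Endogenous PD-L1, the immune checkpoint ligand encoded by CD274, had been knocked out in the cells of both groups. The vector group then received an empty vector, whose backbone is not named in the sources used here. The other group received nPD-L1, a PD-L1 in which an LCL stretch was mutated to ACA. It was cloned into pCDH-CMV-Puro, driven by the CMV promoter, and delivered by lentivirus to make stable cells. 3 libraries of total RNA were sequenced per group, and whether the knockout cells were 1 clone is not given in the sources used here. The study describes the sequenced samples as independent but does not say whether they came from separate cultures, so the p values below measure the spread between these libraries, which may be technical.

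The deposited values were reads per gene after division by the size factor of the library, called scaled reads below. The libraries held 17427519 to 22253295 recovered reads, and 3 reads, the limit that a count of 0 allows, correspond to 2.52 to 3.39 scaled reads. These limits cover counting error only. CD274 was read first, as a check of the labels. It stood at 28.3, 38.4 and 47.8 scaled reads in the vector libraries and at 16.8, 19.2 and 30.9 in the libraries labelled nPD-L1 (log2 fold change −0.76, SE 0.34, limma adjusted p = 0.338; two-sided exact permutation p = 0.2, with 0.1 the smallest possible). Thus CD274 was not higher in the libraries labelled nPD-L1, and "with nPD-L1" below stands for the libraries labelled nPD-L1. Whether reads of the transgene were counted on CD274 was not tested. The study reported enforced nuclear PD-L1 in its stable Hep3B cells from protein detection and cell fractionation. That is a protein measure, which these RNA values do not test. Most of the hepatocyte markers were at the floor. ALB, APOA1, APOB, TTR and TF, 5 of the 9 hepatocyte and hepatoma markers in the table, were at most 2.89 scaled reads in any library. That is 0 to 3 reads, and AFP was not analysed here. The list as a whole thus does not bear out the liver identity that the Hep3B label gives. The label is taken from the sample titles, and the identity of the line was not tested. FGB was at 962 to 1540.5, SERPINA1 at 7.91 to 41.4, FOXA2 at 1752 to 1953 with vector and 661 to 742 with nPD-L1, and HNF4A at 6.24 to 19.2 and 33.8 to 51.6. The summed hepatocyte list was 2935 to 3314 with vector and 1806 to 1838 with nPD-L1. The fibroblast list (4 of its 5 genes in the table) summed to 165 to 245 and 590 to 652. Within it COL1A1 went from 49.9 to 82.8 with vector to 445 to 487 with nPD-L1, LUM was at 99.9 to 182 and 112 to 161, and DCN and PDGFRA were below 10 in every library. The endothelial, leukocyte, adipocyte and muscle lists summed to at most 6.06, 16.8, 4.16 and 12.1 in any library. The part of these markers in the results below was not tested.

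A fatty acid is first joined to coenzyme A by an acyl-CoA synthetase. Long-chain acyl groups then cross the mitochondrial membranes as carnitine esters, which carnitine palmitoyltransferases make and unmake, and the β-oxidation spiral shortens the chain by an acetyl-CoA per turn. Peroxisomes shorten very long and branched chains, and liver turns surplus acetyl-CoA into ketone bodies. In hepatocytes PPARα, a nuclear receptor that binds DNA as a heterodimer with RXR, drives many of these genes in fasting.

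Among the 30 genes tested, 1 rose in the libraries labelled nPD-L1, the acyl-CoA synthetase ACSL1, and none fell. Over all genes tested, 4.04% were called higher and 0.922% lower by limma at an adjusted p under 0.05, and 1 of 30 is 3.33%, so the share was near the background. limma, edgeR and DESeq2 each called 0 of the 30 lower, and 0 of them were lower at an unadjusted p under 0.05. The log2 fold changes ran from −1.09 for ACSL5 to 0.64 for ACSL1, with a median of −0.02 beside −0.02 over all genes tested. 12 of the 30 had a positive and 18 a negative sign. The 95% interval of the change lay within 2-fold in either direction for 28 of the 30 genes (93.3%, and 77.9% of all genes tested), and within 1.5-fold for 20 (66.7%, and 54.7%). The vector and nPD-L1 libraries did not overlap for ACSL1 and CPT1A, both higher with nPD-L1, nor for ACADVL and ACOX2, both lower. Such separation was found for 12.0% of all genes in the upward and 8.54% in the downward direction, so 2 of 30 each way was no more than the background.

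**Figure D1:**
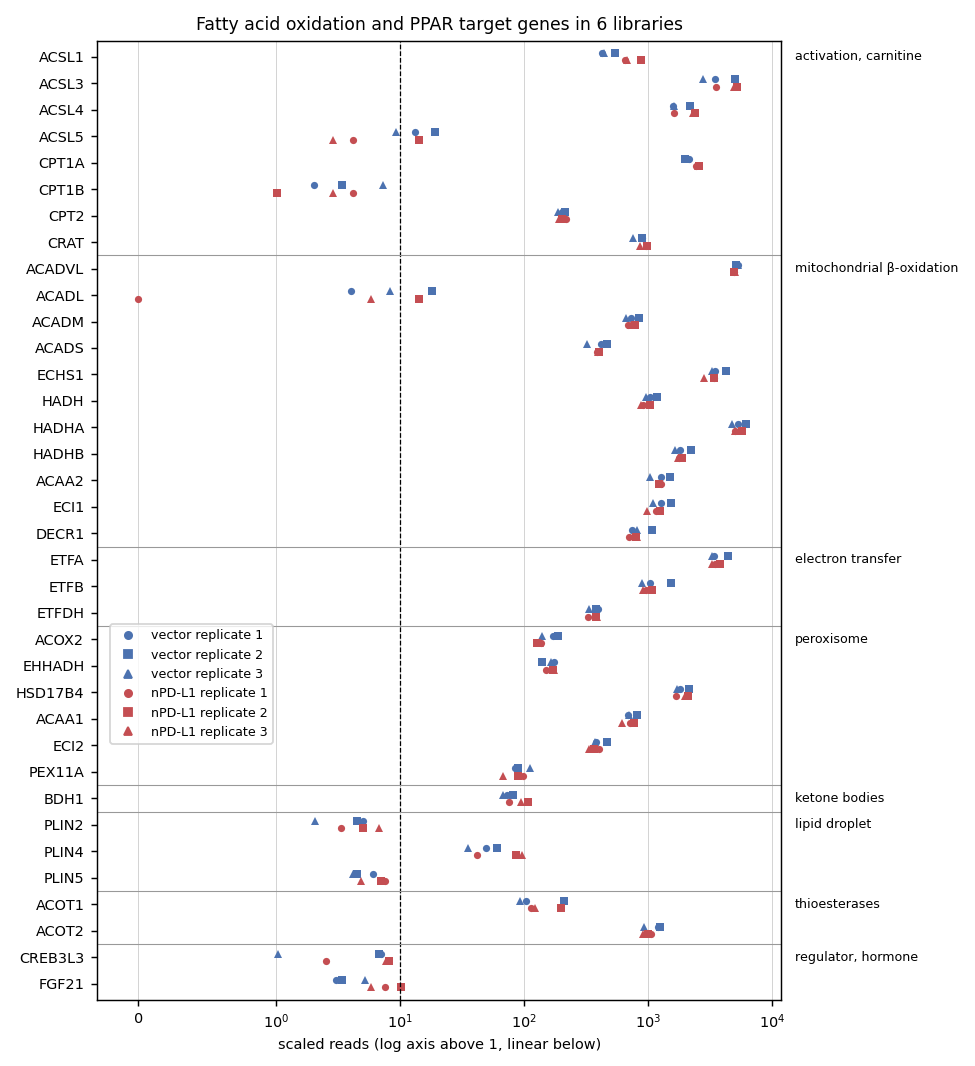
Scaled reads of the 36 genes in each of the 6 libraries, on a log axis above 1 and a linear one below it, grouped by role. Blue points are vector and red points nPD-L1 libraries, the marker shape gives the replicate, and the dashed line marks 10 scaled reads. The 2 groups lie over each other for most genes. The red points of ACSL1, CPT1A and FGF21 lie to the right of the blue ones, and those of ACADVL and ACOX2 to the left.

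The activation and carnitine genes were examined first, since they set how much fatty acid reaches the spiral. ACSL1 (ENSG00000151726, GRCh38 chromosome 4, 184755595 to 184826818, minus strand) encodes the long-chain acyl-CoA synthetase that is abundant in liver, fat and heart and is a classical PPARα target. It was at 431, 547 and 447 scaled reads with vector and at 659.7, 884 and 678 with nPD-L1, in the order of replicates 1, 2 and 3, as for all values below. The lowest nPD-L1 library exceeded the highest vector library, and replicate 2 was the highest in both groups. ACSL1 thus rose 1.55-fold (95% interval 1.24 to 1.94) from 475 ± 62.7 to 741 ± 125 (SD, n = 3), with a log2 fold change of 0.64 (SE 0.15, limma adjusted p = 0.0314). edgeR and DESeq2 on recovered reads gave adjusted p values of 0.0269 and 0.0029. The call was lost with upper-quartile scaling (limma adjusted p = 0.0576). It was also lost without vector replicate 1 (0.165) or 3 (0.0550), and without nPD-L1 replicate 1 (0.0725), 2 (0.162) or 3 (0.0911), all limma adjusted p values, and it held without vector replicate 2 (0.0014). The log2 fold change was 0.50 to 0.74 over all these settings.

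CPT1A (ENSG00000110090, GRCh38 chromosome 11, 68754620 to 68844410, minus strand) encodes the liver form of carnitine palmitoyltransferase 1, which malonyl-CoA inhibits and which sets the rate of long-chain oxidation. It was at 2158, 1988 and 2064 scaled reads with vector and at 2469.8, 2610.5 and 2525 with nPD-L1. The groups did not overlap, and the spread within each was small, 2069.9 ± 85.3 and 2535 ± 70.8 (SD, n = 3). Its log2 fold change of 0.29 (SE 0.091, 95% interval 0.091 to 0.49) did not pass the threshold (limma adjusted p = 0.122, unadjusted p = 0.0087). None of 17 alternative fits called it, with adjusted p values from 0.0737 to 0.452. CPT1B, the muscle form of the same enzyme, was at 2.02, 3.39 and 7.27 with vector and at 4.20, 1.01 and 2.89 with nPD-L1, or 1 to 7 reads. Per kb of gene model CPT1A stood at 351 and CPT1B at 0.845 scaled reads, and their transcripts share 0 stretches of 100 bases. CPT2, which turns acylcarnitine back into acyl-CoA in the matrix, was at 189 to 215 and 193 to 218 (log2 fold change 0.02). CRAT, the carnitine acetyltransferase, was at 758 to 905 and 859.5 to 985 (0.13, limma adjusted p = 0.673).

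The start-proximal sequences of ACSL1 and CPT1A are shown because these genes stood apart between the groups in the upward direction, and that of ACSL5 because its window holds the hexamer AGGTCA. Each is the 250 bases before the RefSeq start on GRCh38.p14, in the direction of the gene, at chr4:184825969-184826218 (minus strand), chr11:68844278-68844527 (minus strand) and chr10:112375018-112375267 (plus strand). Capitals mark GGGCGG, the GC box, or AGGTCA, the nuclear receptor hexamer, searched on both strands. Where a gene had several windows, the one whose start was closest to the 5′ end of the gene model is shown. That start lay 850 bases inside the gene model for ACSL1 (5 windows), 133 for CPT1A (1 window) and 1250 for ACSL5 (2 windows).
ACSL1: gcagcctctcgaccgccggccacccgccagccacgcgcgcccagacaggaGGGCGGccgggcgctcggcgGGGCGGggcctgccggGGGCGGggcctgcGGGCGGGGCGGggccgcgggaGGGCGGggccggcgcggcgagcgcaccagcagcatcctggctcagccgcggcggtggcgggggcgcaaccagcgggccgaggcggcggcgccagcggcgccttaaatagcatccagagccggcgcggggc
CPT1A: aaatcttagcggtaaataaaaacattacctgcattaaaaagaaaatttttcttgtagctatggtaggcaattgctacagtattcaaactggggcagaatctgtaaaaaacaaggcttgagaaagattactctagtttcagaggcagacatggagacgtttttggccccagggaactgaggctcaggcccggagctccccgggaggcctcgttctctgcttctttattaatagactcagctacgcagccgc
ACSL5: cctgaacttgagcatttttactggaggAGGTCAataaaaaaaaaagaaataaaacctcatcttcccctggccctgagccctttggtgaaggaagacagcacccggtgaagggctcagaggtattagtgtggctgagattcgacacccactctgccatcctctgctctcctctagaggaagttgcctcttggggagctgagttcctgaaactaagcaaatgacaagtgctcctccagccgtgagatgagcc
The ACSL1 window is 83.6% G or C and holds 6 GC boxes, of which a pair overlaps. The CPT1A window is 44.4% G or C and holds 0 GC boxes and 0 AGGTCA hexamers. The ACSL5 window is 50% G or C and holds 1 AGGTCA hexamer. GGGCGG occurs in 42.6% of all 35116 RefSeq windows of this length and in those of 20 of the 29 listed genes that have a window. AGGTCA occurs in 12.1% of all windows and in those of ACSL5, CREB3L3 and FABP1. The direct repeat that PPAR-RXR heterodimers prefer, 2 AGGTCA hexamers in the same direction with any 1 base between them, was found in 0.0171% of all windows and in 0 of the 29. The background shares count windows, whereas a listed gene was counted if any of its windows matched. A gene can have several windows, so the gene counts cannot be compared with the shares of windows. These letter matches describe the windows and are not evidence of binding.

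The other acyl-CoA synthetases did not pass the test. ACSL3, which sits on the endoplasmic reticulum and lipid droplets, was at 3499, 5105 and 2811 with vector and at 3533, 5251 and 4946 with nPD-L1 (log2 fold change 0.29, SE 0.21, limma adjusted p = 0.609). ACSL4, which prefers arachidonate, was at 1596, 2182 and 1639.9 and at 1619, 2387 and 2323 (0.22, limma adjusted p = 0.634). Both genes were lowest in replicates 1 and 3 of the vector group and in replicate 1 of the nPD-L1 group, and their groups overlapped. ACSL5, a synthetase of mitochondria and intestine, was at 13.1, 19.2 and 9.35 and at 4.20, 14.2 and 2.89, which is 3 to 17 reads. Its log2 fold change of −1.09 had an interval of −2.41 to 0.23 (limma adjusted p = 0.477). Per kb, ACSL3 made up 54.1% to 62.0% of the summed level of these 4 synthetases, ACSL4 29.8% to 35.6%, ACSL1 7.65% to 12.4% and ACSL5 at most 0.399%. The share of ACSL1 was 8.53%, 7.65% and 9.91% with vector and 12.4%, 11.3% and 9.35% with nPD-L1. These shares overlapped, since vector replicate 3 exceeded nPD-L1 replicate 3.

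**Figure D2:**
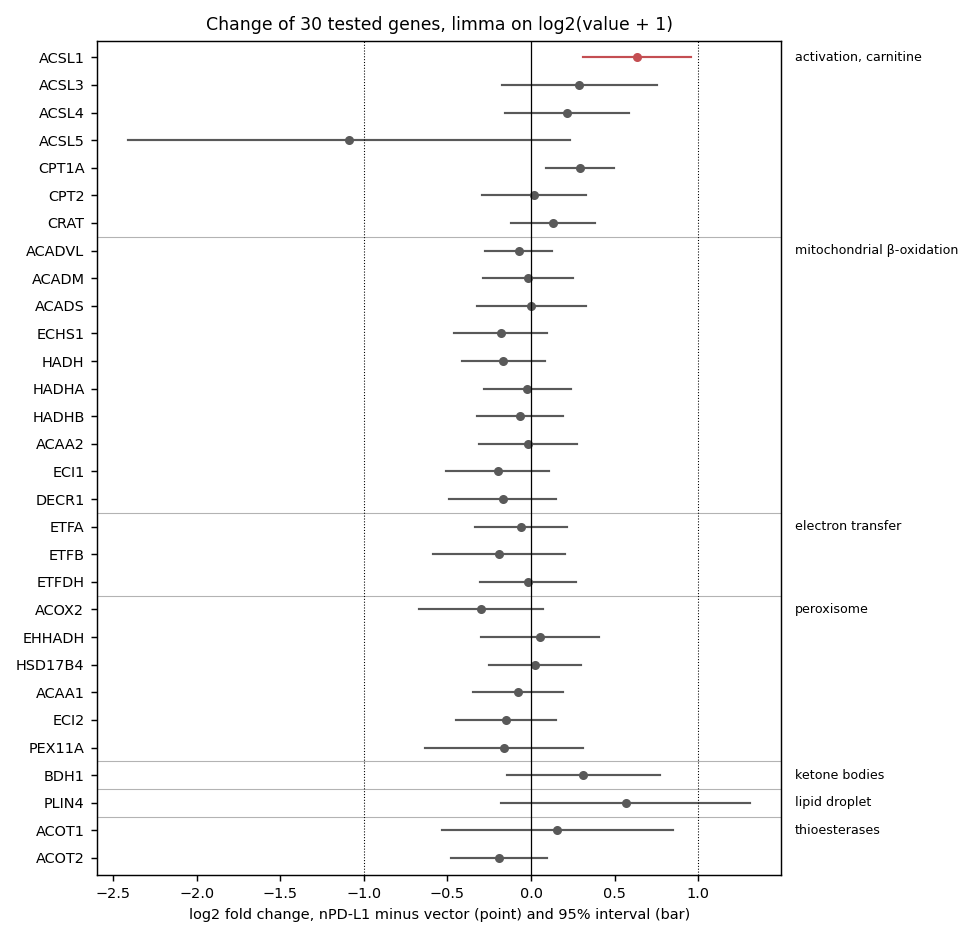
Log2 fold change (nPD-L1 minus vector, limma on log2(value + 1)) of the 30 genes tested, with 95% intervals as bars and dotted lines at 2-fold. ACSL1, in red, is the gene with an adjusted p under 0.05, and the intervals of ACSL5 and PLIN4 reach beyond 2-fold.

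The tested enzymes of the mitochondrial spiral lay close together in the 2 groups. Per kb they ranged from HADH, above 51.9% of the genes tested, to ECHS1, above 97.8%. 10 of the 11 passed the filter, and limma, edgeR and DESeq2 called 0 of them, with 0 at an unadjusted p under 0.05. The log2 fold changes ran from −0.20 to 0.0023 with a median of −0.07, and 1 of the 10 (10%) had a positive sign, beside 46.7% of all genes tested. Vector replicate 2 was the highest vector library for all of the 10 but ACADVL. The signs are therefore not separate observations, and nothing is read from this share. Without vector replicate 2 the median log2 fold change of all 30 genes tested was 0.06, and that of these 10 alone is not given here. The 95% intervals of all 10 lay between −0.51 and 0.33, and so within 1.5-fold. The limma adjusted p values were 0.592 to 0.995. Among the first enzymes of the spiral, ACADVL, the very-long-chain acyl-CoA dehydrogenase, was at 5366, 5157 and 5361 with vector and at 4977, 5009.6 and 5097 with nPD-L1. Its groups did not overlap, yet the difference was a log2 fold change of −0.07 (interval 0.828-fold to 1.09-fold, limma adjusted p = 0.760). ACADM and ACADS, the medium- and short-chain dehydrogenases, were at 663 to 856 and 323 to 465 with vector and at 698 to 783 and 391 to 407 with nPD-L1. ACADL, the long-chain dehydrogenase, was at 4.04, 18.1 and 8.31 with vector and at 0, 14.2 and 5.79 with nPD-L1 and was not tested. In both groups replicate 2 was the highest for ACADL.

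The hydratase, dehydrogenase and thiolase steps behaved likewise. ECHS1, the short-chain enoyl-CoA hydratase, was at 3501, 4295 and 3285 with vector and at 3424, 3454 and 2860.2 with nPD-L1 (log2 fold change −0.18, limma adjusted p = 0.594). HADHA, the α subunit of the trifunctional protein, was at 5319, 6208 and 4781 and at 5099, 5792 and 5100.2 (−0.02, limma adjusted p = 0.952). HADHB, its β subunit, was at 1819.9, 2217 and 1668 and at 1773, 1879 and 1758 (−0.07, limma adjusted p = 0.843). All 3 genes were highest in vector replicate 2, and their groups overlapped. The ratio of HADHA to HADHB, per kb, was 2.85, 2.73 and 2.80 with vector and 2.81, 3.01 and 2.83 with nPD-L1. These genes overlap at their 5′ ends on opposite strands, and whether reads were counted by strand is not given in the sources used here, so reads in the overlap may be shared. HADH, the short-chain hydroxyacyl-CoA dehydrogenase, was at 971 to 1179 and 889 to 1036, and ACAA2, the thiolase, at 1042 to 1516 and 1223 to 1269.8. ECI1 and DECR1 handle double bonds of unsaturated chains. ECI1 was at 1109 to 1552 with vector and 995 to 1256 with nPD-L1 (log2 fold change −0.20, limma adjusted p = 0.597), and DECR1 at 745 to 1082 and 703 to 811 (−0.17, limma adjusted p = 0.668).

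Per kb of gene model, 3 enzymes of the spiral led the whole set. Averaged over the 6 libraries, ECHS1 stood at 2146 scaled reads per kb, above 97.8% of the genes tested, HADHA at 1228 (95.7%) and ACADVL at 1061 (95.04%). ETFA, at 724 (92.3%), and ACSL3, at 579 (89.9%), followed. CPT1A, at 351 (83.0%), and ACSL1, at 96.7 (55.3%), lay lower, so the gene that passed the test was near the middle of the range of all genes tested. The summed scaled reads of the 30 genes were 36828 to 47314 with vector and 39154 to 44355 with nPD-L1, and the nPD-L1 range lay inside the vector range.

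Electrons from the acyl-CoA dehydrogenases pass through the flavoprotein of ETFA and ETFB to its ubiquinone oxidoreductase, ETFDH. ETFA was at 3439, 4419 and 3321 scaled reads with vector and at 3501, 3839 and 3322 with nPD-L1 (log2 fold change −0.06, limma adjusted p = 0.869). ETFB was at 895 to 1548 and 912 to 1091 (−0.19, limma adjusted p = 0.696), and ETFDH at 335 to 394 and 329 to 387 (−0.02, limma adjusted p = 0.971). The groups overlapped for all 3, and ETFA and ETFB were highest in replicate 2 of each group. limma, edgeR and DESeq2 called 0 of the 3, with 0 at an unadjusted p under 0.05.

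The 6 peroxisomal genes gave the same picture, with 0 calls by limma, edgeR and DESeq2 and 0 at an unadjusted p under 0.05. ACOX2, the branched-chain acyl-CoA oxidase of bile acid synthesis, was at 171, 189 and 139 with vector and at 138, 128 and 136 with nPD-L1. All 3 nPD-L1 libraries lay below the lowest vector library, which was only just above them, and the log2 fold change was −0.30 (SE 0.17, limma adjusted p = 0.495). EHHADH and HSD17B4, the 2 peroxisomal bifunctional enzymes, were at 140.0 to 176 and 1717 to 2160.5 with vector and at 152 to 174 and 1676 to 2116 with nPD-L1. Their log2 fold changes were 0.06 and 0.02. ACAA1, the peroxisomal thiolase, was at 696 to 815 and 615 to 769, ECI2, an enoyl-CoA isomerase, at 375 to 470 and 338 to 401, and PEX11A, which acts in peroxisome division, at 84.8 to 111 and 67.5 to 98.3. For these 3 the groups overlapped, with log2 fold changes of −0.08, −0.15 and −0.16. PEX11A overlaps PLIN1 on the same strand, and PLIN1 itself was at 0.840 to 4.16.

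BDH1, which interconverts acetoacetate and β-hydroxybutyrate, was the ketone body gene of the set. It was at 72.7, 82.4 and 67.6 scaled reads with vector and at 76.5, 108 and 94.5 with nPD-L1. nPD-L1 replicates 2 and 3 exceeded every vector library and replicate 1 did not, and the log2 fold change was 0.31 (SE 0.21, limma adjusted p = 0.574). 6 further genes of ketone making and use were tested, and limma, edgeR and DESeq2 called 0 of them. 1 of the 6, the lactate and ketone carrier SLC16A1, had an unadjusted p under 0.05. It was at 1805, 1738 and 1893 with vector and at 2146, 2199 and 2156 with nPD-L1. The groups did not overlap, with a log2 fold change of 0.26 (limma adjusted p = 0.184).

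The perilipins coat lipid droplets, and several are induced by PPARs in fatty liver. PLIN2 and PLIN5 were near the floor here, PLIN4 was low, and PLIN3, a widely expressed coat protein from the list of other pathway genes, was abundant at 1997 to 2725 scaled reads (log2 fold change −0.13, limma adjusted p = 0.713). PLIN2, the usual droplet coat of hepatocytes, was at 5.05, 4.52 and 2.08 with vector and at 3.36, 5.06 and 6.75 with nPD-L1, and PLIN5, which ties droplets to mitochondria, at 6.06, 4.52 and 4.16 and at 7.56, 7.08 and 4.82. Both held 2 to 9 reads per library and were not tested. PLIN4 was at 49.5, 61.0 and 35.3 with vector and at 42.0, 86.0 and 97.4 with nPD-L1. nPD-L1 replicate 1 lay inside the vector range and the other two above it, and the log2 fold change of 0.57 (SE 0.34, interval −0.18 to 1.31) had a limma adjusted p of 0.524. CREB3L3, a liver transcription factor that acts with PPARα, was at 7.07, 6.78 and 1.04 and at 2.52, 8.09 and 7.72. FGF21, the fasting hormone that both induce, was at 3.03, 3.39 and 5.20 and at 7.56, 10.1 and 5.79. FGF21 was higher in every nPD-L1 library than in any vector library, but at 3 to 10 reads it was under the filter and was not tested.

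ACOT1 and ACOT2, the cytosolic and mitochondrial thioesterases that split acyl-CoA, are neighbouring copies on chromosome 14 and classical PPARα targets. ACOT1 was at 104, 209 and 92.5 scaled reads with vector and at 115, 198 and 123 with nPD-L1. ACOT2 was at 1220.3, 1262 and 938 and at 1057, 1004 and 912. Replicate 2 of each group was the highest for ACOT1, and the groups overlapped for both genes. The log2 fold changes were 0.16 and −0.19 (limma adjusted p = 0.862 and 0.582), and the sign of ACOT1 turned without vector replicate 3 (−0.065) or nPD-L1 replicate 2 (−0.087). Of the 1710 stretches of 100 bases in ACOT1 transcripts, 546 (31.9%) also occur in ACOT2, so the split of reads between them is uncertain. Their sum was 1324, 1470.4 and 1031 with vector and 1172, 1203 and 1034 with nPD-L1.

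Replicate 2 was high in both groups for most of these genes. Vector replicate 2 was the highest of its group for 24 of the 30 genes (80%, beside 40.9% of all genes tested), and nPD-L1 replicate 2 for 19 (63.3%, beside 31.9%). Vector replicate 3 was the highest for 1. Relative to its own group's mean, the median gene lay 0.20 higher on the log2 scale in vector replicate 2, 0.16 lower in vector replicate 3 (−0.16) and 0.09 higher in nPD-L1 replicate 2. All 36 genes in the table took up 0.216%, 0.241% and 0.202% of the scaled reads of the vector libraries and 0.210%, 0.237% and 0.224% of those of the nPD-L1 libraries. The median log2 fold change of the 30 genes was 0.06 without vector replicate 2 and −0.11 without vector replicate 3, so its sign depended on which vector library was left out. It was −0.08 to −0.01 without any 1 of the other 4 libraries.

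**Figure D3:**
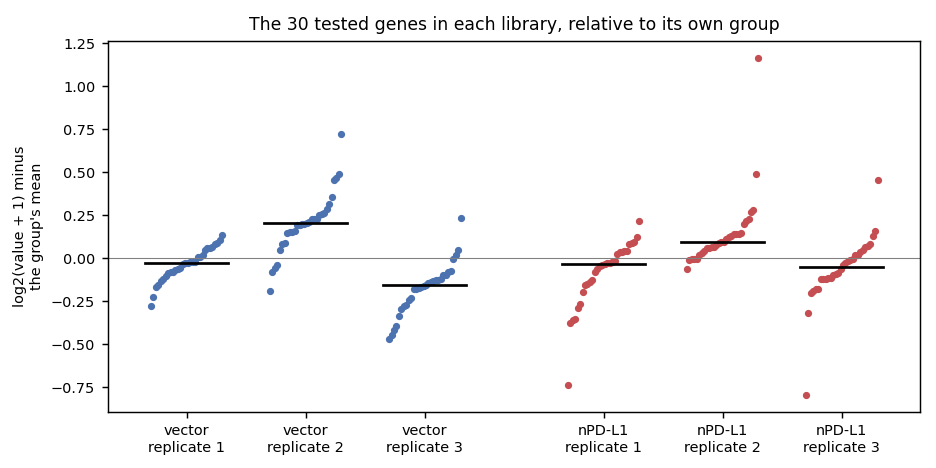
Deviation of each of the 30 genes from the mean of its own group, on the log2(value + 1) scale, in the 6 libraries. Each point is a gene, sorted within its library, and black lines are medians. The points of vector replicate 2 and nPD-L1 replicate 2 lie mostly above 0 (26 and 25 of 30), and those of vector replicate 3 mostly below it (3 of 30 above).

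Other genes of the pathway were read next, from a list of 71 made by role, with receptors, cofactors and further targets. 65 were in the table and 55 passed the filter. 4 rose and 1 fell, which is 9.09% of the 55, and 4.96% of all genes tested were called in either direction. The list was made with earlier results of these data known, the change of PDK4 among them, so nothing is read from these shares. The median log2 fold change of the 55 was 0.02. RXRA, the heterodimer partner of the PPARs, was at 1618, 1513 and 1649 and at 2654, 2293 and 2162, without overlap, and rose by 0.57 (SE 0.11, limma adjusted p = 0.0094). PPARGC1B, a coactivator of mitochondrial genes, was at 166, 146 and 274 and at 348, 359 and 364, and rose by 0.92 (SE 0.21, limma adjusted p = 0.0310). Vector replicate 3 was the closest of its group to the nPD-L1 libraries for PPARGC1B. The call of RXRA was lost without vector replicate 1 (limma adjusted p = 0.0543) or nPD-L1 replicate 1 (0.0573). That of PPARGC1B was lost without vector replicate 1 (limma adjusted p = 0.154) or without nPD-L1 replicate 1 (0.131), 2 (0.101) or 3 (0.146).

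The receptors themselves were not called. PPARA was at 54.5, 38.4 and 37.4 scaled reads with vector and at 46.2, 56.6 and 43.4 with nPD-L1 (log2 fold change 0.17, limma adjusted p = 0.809). Per kb it stood at 3.49, above 4.55% of the genes tested, while PPARG stood at 365 (83.7%) and PPARD at 54.9 (42.8%). PPARG was at 1756, 1929 and 1692 with vector and at 1541, 1531 and 1491 with nPD-L1. The groups did not overlap, and the log2 fold change of −0.23 had a limma adjusted p of 0.280. PPARD was at 185 to 271 and 243 to 289 (0.23, limma adjusted p = 0.603). NCOR1, MED1 and RXRB also did not pass, and PPARGC1A was not analysed here.

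2 PPAR targets changed far more than any gene of the oxidation set, in opposite directions. ANGPTL4, a secreted inhibitor of lipoprotein lipase, was at 359, 377 and 424 scaled reads with vector and at 4322, 2966 and 3049 with nPD-L1. It rose 8.77-fold, a log2 fold change of 3.13 (SE 0.15, limma adjusted p = 7.3e-07), and its lowest nPD-L1 library was well above every vector library. PDK4, the kinase that blocks pyruvate dehydrogenase and spares glucose when fat is burned, was at 7769, 7937 and 7827 with vector and at 1490.0, 1319.9 and 1500.0 with nPD-L1, so that it fell by 2.45 on the log2 scale (SE 0.095, limma adjusted p = 2.3e-07). TXNIP, CIDEC, CD36, G0S2, PLIN1, FABP3, ACSL6, ACOXL, ABCD2 and ACAD11 were under the filter.

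**Figure D4:**
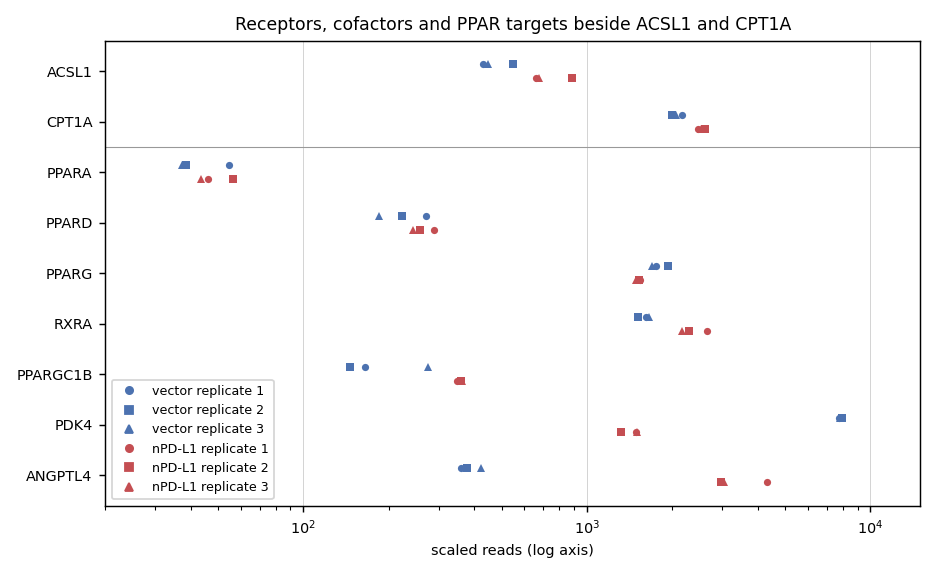
Scaled reads (log axis) of ACSL1 and CPT1A above the line and of receptors, cofactors and other PPAR targets below it, in the 3 vector (blue) and 3 nPD-L1 (red) libraries, with the marker shape giving the replicate. ANGPTL4 lies to the right and PDK4 to the left with nPD-L1, while the points of PPARA overlap.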

How the data were processed

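RNA of Hep3B cells was sequenced by a company in 3 vector and 3 nPD-L1 libraries, grouped by their sample titles. Per the labels the authors used CASAVA and HISAT2 (version 2.0.5) on hg38, and the counter and annotation are not given in the sources used here. The deposited values are a signal, reads per gene divided by a size factor, beside the authors' means and columns of their own comparison (fold change and p values), which were not used. All values (100%) lay within 0.001 of whole reads, although in vector replicate 1 and nPD-L1 replicate 2 a read is worth so close to 1 that this is weaker evidence. Genes that reached 10 in 3 or more libraries entered a limma fit (3.58.1, under R 4.3.3) of log2(value + 1), moderated with trend and robust settings, and p values were adjusted over all of them by Benjamini-Hochberg. Fold changes on this scale understate low genes. All listed genes were named, by role, and some results for single genes of the wider pathway are not reported here. The genes and lists were chosen with earlier results of these data known. edgeR (4.0.16) and DESeq2 (1.42.0) on recovered reads, other scalings (upper quartile, trimmed mean of M values), filters, pseudocounts of 0.1 and 10, non-robust moderation, protein-coding genes only, a replicate block and each library left out were alternatives. Scripts were tested on simulated data. Start and end of 36 of 36 genes matched GENCODE release 29, and promoter windows were from RefSeq (GRCh38.p14).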

Additional observations from a re-analysis of the deposited data

How the results depend on the processing

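Of the oxidation genes, the number called higher was 1, and became 0 with upper-quartile scaling, 0 with an added log2 fold change of at least 1, 2 at an unadjusted p under 0.05, and 0 to 1 when a library was left out. Of the other pathway genes, those called higher numbered 2 with the fold threshold, 8 at an unadjusted p under 0.05 and 2 to 5 when a library was left out, and those called lower numbered 4 at an unadjusted p under 0.05. ACOT1 reversed without vector replicate 3 (−0.065) or nPD-L1 replicate 2 (−0.087), in a range of −0.087 to 0.52. ANGPTL4 and PDK4 were called in all 17 alternatives and CPT1A in 0. Same-numbered libraries correlated at −0.01, 0.23 and 0.13 in their deviations over genes, and not every library correlated best with its own number, so the numbers were not taken as pairs. With the replicate block, 927 genes were called higher and 258 lower, beside 609 and 139 without it, and 1 and 0 of the oxidation genes. Leaving out a library gave 350 to 793 genes higher and 77 to 244 lower. Counting limits genes under 10 reads, and the spread between 3 libraries limits the rest.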

Other observations

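Other genes next to the oxidation set stood apart between the groups without passing the adjusted threshold. UCP3, a mitochondrial carrier that rises with fatty acid supply in muscle, was at 16.1, 10.2 and 13.5 scaled reads with vector and at 24.4, 20.2 and 27.0 with nPD-L1 (log2 fold change 0.81, SE 0.36, limma adjusted p = 0.327). ACAD10, an acyl-CoA dehydrogenase family member, was at 367, 333 and 348 and at 420.2, 409.6 and 481 (0.32, limma adjusted p = 0.239). FABP5, a fatty acid binding protein, was at 2615, 3078 and 2431 and at 2347, 2242 and 2141 (−0.27, limma adjusted p = 0.291). In each of these 3 genes the groups did not overlap, and each had an unadjusted p under 0.05, as did 12 of the 55 other pathway genes tested and 2146 of all 15076.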
